A study of Mus musculus with 14 samples.

Results

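Matricellular proteins are secreted into the extracellular matrix, where they bind cells, growth factors and matrix fibres without forming the main load-bearing fibrils themselves. Their genes, and that of the adhesive matrix protein fibronectin, are known for low activity in quiet adult tissue and for high activity in development, wound repair and fibrosis. The corneal stroma is a known exception for 1 of them, the product of Tgfbi, which is abundant in the healthy cornea and whose mutant forms deposit there in human corneal dystrophies. The 10 genes described here were chosen by name: Tgfbi, Fn1, Ccn1, Ccn2, Ccn4, Thbs1, Thbs2, Postn, Tnc and Sparc. Of these, 9 had a probe set of their own among the 7437 genes measured. For Thbs1 the array annotation gives only a probe set that carries a second gene symbol, so no Thbs1 value is reported.

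Total RNA from mice of the CD-1 strain was measured on Affymetrix arrays, 14 in all, 1 array per sample, with signals computed by MAS5. Stromal cells of mice aged 7 to 8 weeks had been grown under 3 conditions, each with 3 arrays. Myofibroblast cultures had TGF-beta1 (10 ng/ml) added to fetal bovine serum (10%), fibroblast cultures had that serum alone, and keratocyte cultures had platelet-poor horse serum (1%). Tissue arrays came from dissected stroma of mice aged 7 to 8 weeks (adult, 3 arrays) and of mice 10 days after birth (P10, 2 arrays). The medium was DMEM in each culture. The labels do not say whether arrays of a group came from separate mice or cultures, so the p-values measure only the spread between these arrays, which may be technical.

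Values are probe set signals, not log transformed. The 19 control probe sets whose spike-in RNA was left out had a 95th percentile of 137.7, and a signal below that is called within background here. The group names were checked against markers. Adult and P10 stroma also carried an epithelial marker: Krt12, a keratin found in corneal epithelium, reached 7148 ± 507 (SD, n = 3) in adult and 6891 ± 476 (SD, n = 2) in P10 stroma. Keratocyte cultures carried Acta2 (smooth muscle actin, a marker of myofibroblasts) at 3193 ± 142 (SD, n = 3), against 56 ± 14.3 in adult stroma, and myofibroblast and fibroblast cultures had 2983 ± 69.1 and 2045.5 ± 1240. Kera, the keratocan gene of keratocytes, was at 165 ± 150 in keratocyte cultures and 303 ± 112 in adult stroma, while Lum, the lumican gene, was at 2309.5 ± 1090 in keratocyte cultures and 1178 ± 370 in adult stroma. Of 10 keratocyte markers 4 rose, 1 fell and 5 did not pass in keratocyte culture against adult stroma. Of 10 myofibroblast markers 7 rose, 2 fell and 1 did not pass there. Over all genes measured 22.1% rose and 9.2% fell. The 3' to 5' signal ratio of Gapdh, a measure of RNA degradation, ran from 0.896 to 2.12 on tissue arrays and from 0.756 to 0.859 on culture arrays, and the highest was adult replicate 1.

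**Figure D1:**
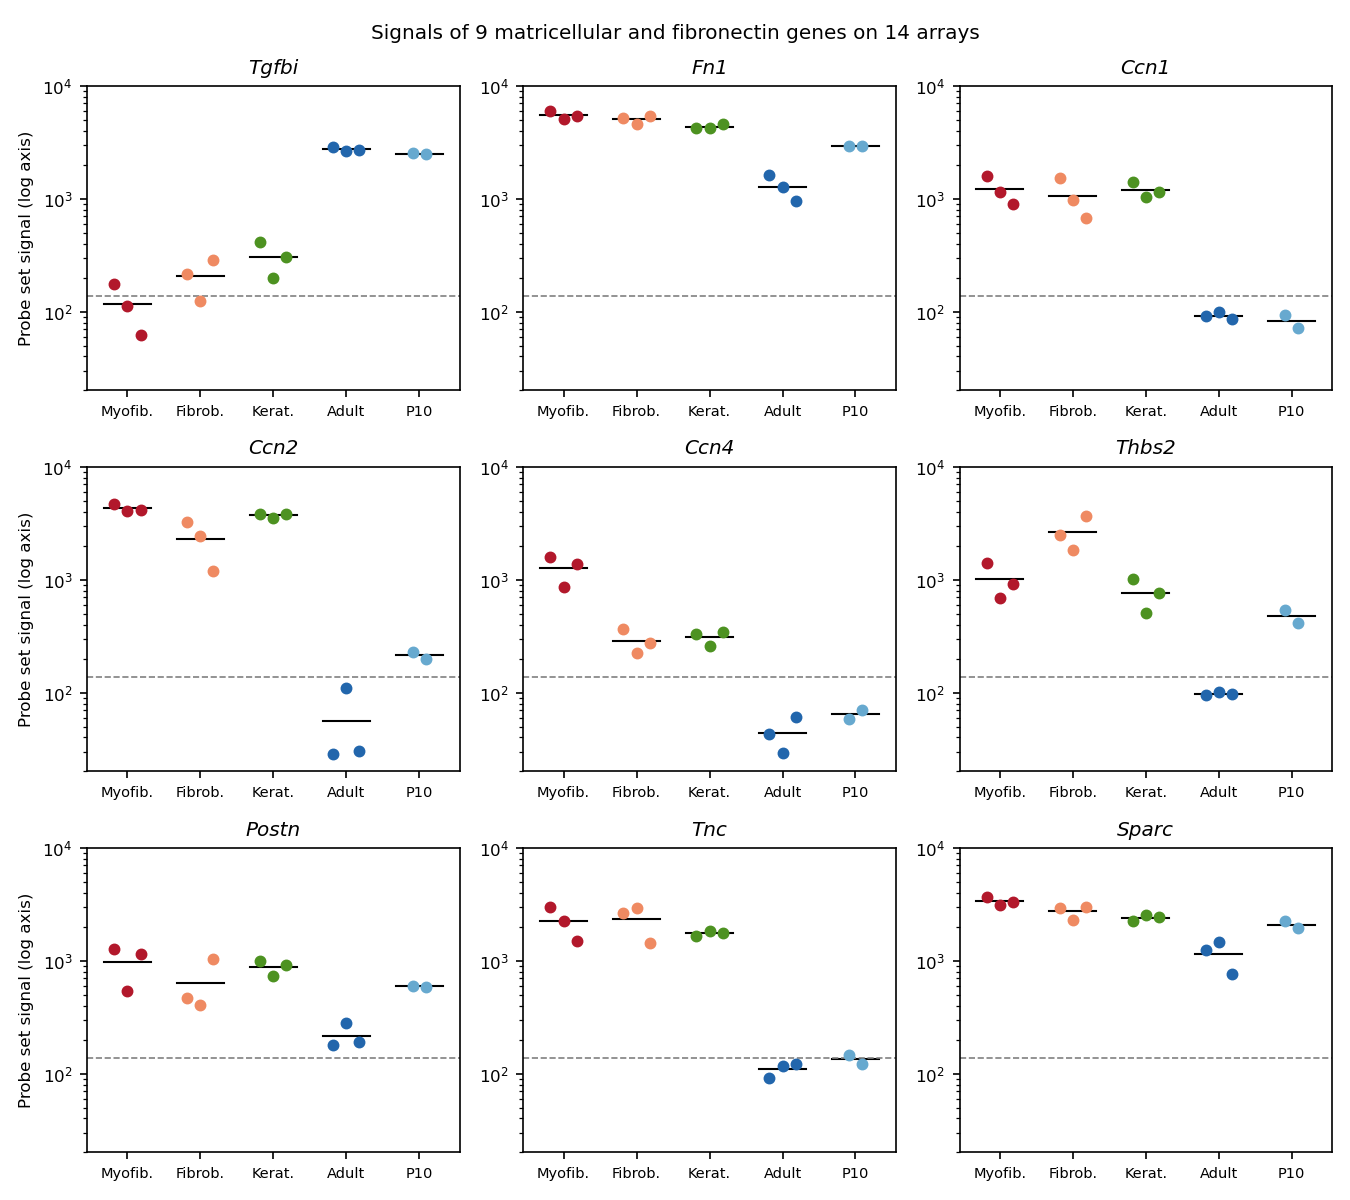
Signal of each of 9 genes on every array (log axis) by group, with myofibroblast, fibroblast and keratocyte cultures and adult and P10 stroma running left to right. Points are arrays, black bars are group means and the dashed line is the background level of 137.7. Tgfbi is lower on all 9 culture arrays than on all 5 tissue arrays, and each of the other 8 genes is higher on every culture array than on the adult arrays. Keratocyte culture and adult arrays did not overlap in 43.9% of all genes. The share for all cultures together was not counted.

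The main pattern was a division between tissue and culture. In keratocyte culture against adult stroma 8 of the 9 genes rose and 1, Tgfbi, fell (limma, adjusted p below 0.05). Among all 7437 genes 22.1% rose and 9.2% fell in that comparison. The median log2 difference was 2.47 over the 9 genes and 0.135 over all genes. Counts were the same, 8 higher and 1 lower, in fibroblast and in myofibroblast culture against adult stroma, where 18.6% and 17.8% of all genes rose and 12.2% and 15.4% fell. These comparisons share the 3 adult arrays. Against P10 stroma, which the cultures also share, 7 rose and 1 fell in myofibroblast, 6 and 1 in fibroblast and 5 and 1 in keratocyte culture, where 8.08%, 8.26% and 9% of all genes rose and 13.9%, 10.1% and 6.55% fell. Among the 7 in myofibroblast culture the calls of Thbs2 and Sparc were lost in 12 and 8 of 25 alternatives, including without either P10 array (adjusted p = 0.103 and 0.293 for Thbs2, 0.099 and 0.262 for Sparc). The background split depended on scaling: over all probe sets 2262 rose and 959 fell in keratocyte culture against adult stroma as deposited, and 1902 and 1640 after quantile normalization, while the 9 genes kept the same calls. In each of the 9 genes no array of keratocyte culture overlapped an array of adult stroma, as in 43.9% of all genes.

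Tgfbi encodes a secreted protein with fasciclin domains that binds collagen and integrins, and its name comes from its induction by TGF-beta in human cells. Its signals were 175, 113 and 62 in myofibroblast, 215, 123 and 286 in fibroblast and 415, 200.1 and 305 in keratocyte cultures. In adult stroma they were 2851, 2663 and 2711, and in P10 stroma 2564 and 2472. All 9 culture arrays therefore lay far below all 5 tissue arrays, and 2 of the 3 myofibroblast arrays and 1 of the 3 fibroblast arrays were within background. Against adult stroma the log2 difference was -3.15 ± 0.33 (SE) in keratocyte, -3.69 ± 0.33 in fibroblast and -4.47 ± 0.33 in myofibroblast culture (adjusted p = 5.2e-06, 9.55e-07 and 1.26e-07, limma). The mean of the myofibroblast arrays, 116, was itself within background, so the size of its differences depends on the added constant: against adult stroma it was -4.67 with a constant of 1 and -4.01 with 64. Tgfbi also fell in myofibroblast against keratocyte culture, with a log2 difference of -1.32 ± 0.33 (adjusted p = 0.0283), or -1.45 and -1.05 with those constants. This call was lost without myofibroblast replicate 2 or 3 (0.0699 and 0.136) or without keratocyte replicate 1 or 3 (0.157 and 0.11).

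The step from fibroblast to myofibroblast culture, which adds TGF-beta1, gave a Tgfbi difference of -0.78 (95% interval -1.49 to -0.07) that did not pass after adjustment (adjusted p = 0.544). Adult and P10 stroma differed by 0.12 (95% interval -0.67 to 0.92, adjusted p = 0.94). Another probe set annotated to Tgfbi gave 5.999 to 69.3 on all 14 arrays, within background, and did not pass the filter on low values.

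Markers of corneal epithelium, lens and retina moved with Tgfbi. All 24 of 24 tested epithelial markers fell in keratocyte culture against adult stroma, beside 9.2% of all genes, with a median log2 difference of -4.22. The summed signal of 25 such markers ran from 1107 to 1379 in myofibroblast, 1165 to 1269 in fibroblast and 1574 to 1763 in keratocyte cultures, against 30560.3 to 38474 in adult and 35363 to 35619 in P10 stroma. Markers below background numbered 19 to 23 of 25 per culture array and 1 or 2 of 25 per tissue array. Of 5 lens markers 3 fell in keratocyte culture against adult stroma, with sums of 595 to 781 in keratocyte culture and 4719 to 7586 in adult stroma. Of 9 retina markers 8 fell, with sums of 491 to 553 in keratocyte culture and 1404 to 4621.5 in adult stroma. The part of the epithelial, lens and retina shares in the fall of Tgfbi was not tested. In bulk RNA fewer cells of a type and less RNA per cell cannot be told apart.

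**Figure D2:**
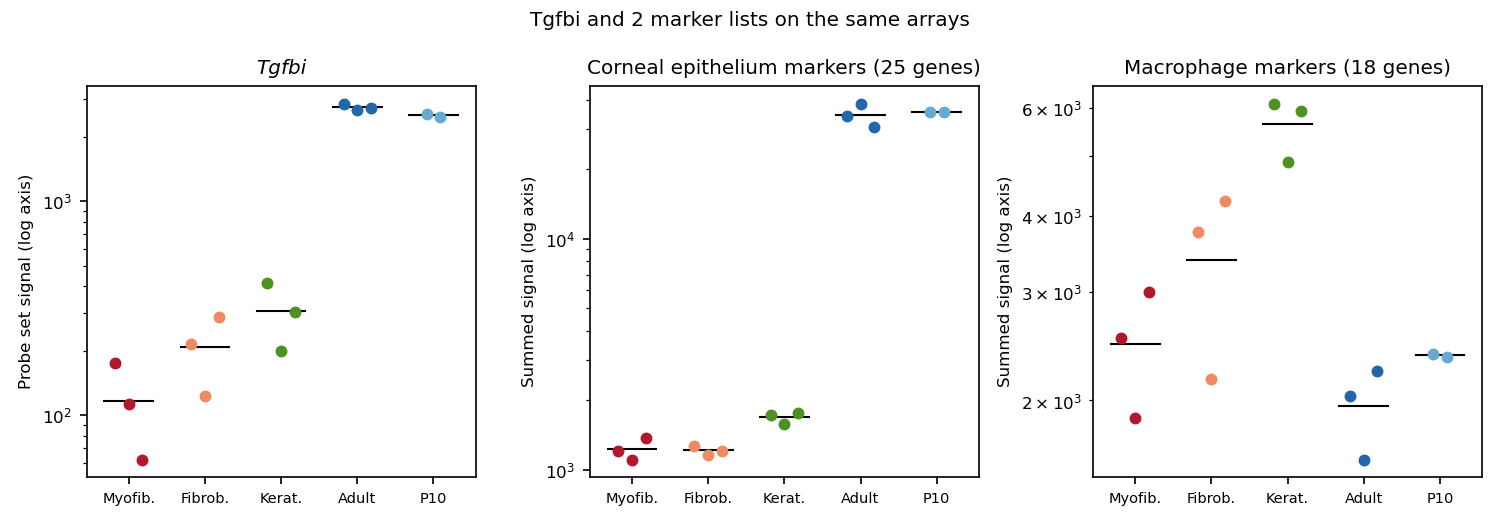
Tgfbi signal, summed signal of 25 corneal epithelium markers and summed signal of 18 macrophage markers on each array (log axes), with black bars at group means. Tgfbi and the epithelial sum separate the tissue arrays from the culture arrays, while the macrophage sum is highest in keratocyte cultures.

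Tgfbi and Ccn1, which moved in opposite directions in culture, and Thbs2, which changed between cultures, are shown by the 250 bases before their start site (RefSeq, GRCm38.p6, 5′ to 3′ on the gene's strand). Capitals mark matches, on either strand, to the TATA box (TATAAA), the core bound by TEAD factors (CATTCC), an AP-1 site (TGANTCA), a SMAD core (CAGACA) and the CArG box of serum response factor.
Tgfbi (chr13:56609336-56609585, plus strand): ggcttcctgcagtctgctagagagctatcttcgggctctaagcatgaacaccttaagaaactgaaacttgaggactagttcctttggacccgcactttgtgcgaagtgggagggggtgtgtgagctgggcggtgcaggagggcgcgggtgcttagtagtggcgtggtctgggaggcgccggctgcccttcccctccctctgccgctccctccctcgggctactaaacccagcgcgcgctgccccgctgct
Ccn1 (chr3:145649986-145650235, minus strand): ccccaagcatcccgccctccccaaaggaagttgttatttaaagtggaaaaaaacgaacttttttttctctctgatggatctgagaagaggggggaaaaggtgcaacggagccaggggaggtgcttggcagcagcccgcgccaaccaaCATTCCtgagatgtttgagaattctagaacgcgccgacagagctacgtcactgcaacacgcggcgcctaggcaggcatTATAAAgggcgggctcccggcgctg
Thbs2 (chr17:14694263-14694512, minus strand): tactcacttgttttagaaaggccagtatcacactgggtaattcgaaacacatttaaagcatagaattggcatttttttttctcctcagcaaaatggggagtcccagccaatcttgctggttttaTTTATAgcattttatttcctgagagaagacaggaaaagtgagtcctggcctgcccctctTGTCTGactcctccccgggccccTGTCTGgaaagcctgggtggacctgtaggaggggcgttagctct
The Ccn1 window held a TATA box 25 bases and a TEAD core 103 bases before the start, the Thbs2 window held, all on the other strand, SMAD cores 67 and 44 bases and a TATA box run 126 bases before it, and the Tgfbi window held none of the 5 motifs. Of 32817 windows of this length 12.4% held the TATA box, 12.6% the TEAD core, 6.75% the AP-1 site, 17.1% the SMAD core and 1.47% the CArG box, so these matches are common and are given as a description. Windows were found for 6 of the 10 genes (Tgfbi, Ccn1, Thbs2, Postn, Tnc and Sparc), and no motif among the 5 occurred in all 6.

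Fn1 encodes fibronectin, the adhesive glycoprotein that cells assemble into fibrils through integrins and onto which other matrix is laid. Its signals were 5999.5, 5092 and 5399 in myofibroblast, 5252, 4648 and 5446 in fibroblast and 4219.5, 4224 and 4629 in keratocyte cultures. Tissue arrays gave 1619.6, 1268 and 946 in the adult and 2953 and 2935 at P10. The order of means was thus myofibroblast, fibroblast and keratocyte culture, P10 stroma and adult stroma, and neighbours among the cultures did not differ past the threshold. Keratocyte culture lay above P10 stroma by 0.56 ± 0.18 (adjusted p = 0.0451), a call lost in 14 of 25 alternatives. Myofibroblast culture lay above it by 0.89 ± 0.18 (adjusted p = 0.00215), a call kept in all 25. The fibroblast difference from P10 was 0.79 ± 0.18 (adjusted p = 0.00602, and 0.0518 and 0.0576 without P10 replicate 1 or 2).

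Postn encodes periostin, a relative of the Tgfbi product with fasciclin domains that promotes collagen assembly in tissue under load. Its signals were 1267, 537 and 1147 in myofibroblast, 464, 403 and 1043 in fibroblast and 996, 734 and 920.2 in keratocyte cultures, against 178, 281 and 191 in adult and 601 and 588 in P10 stroma. Every culture array lay above every adult array, and the range of the fibroblast and myofibroblast cultures spanned the P10 values. Postn rose in keratocyte culture against adult stroma by 1.97 ± 0.35 (adjusted p = 0.000602). No culture differed from P10 stroma past the threshold (adjusted p = 0.288 for myofibroblast, 0.973 for fibroblast and 0.408 for keratocyte culture). Tgfbi lay below P10 stroma in the same 3 cultures (adjusted p = 9.79e-07, 8.19e-06 and 4.52e-05).

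The CCN genes encode cysteine-rich secreted proteins that bind integrins and growth factors. Ccn1 and Ccn2 are known as rapid targets of serum, stretch and TGF-beta signals in cultured cells, and Ccn4 was first described as a Wnt-induced gene. Ccn1 gave 1588, 1149 and 896 in myofibroblast, 1538, 973 and 676 in fibroblast and 1416, 1044 and 1145 in keratocyte cultures. Adult stroma gave 90.7, 99.6 and 86.1, and P10 stroma 92.5 and 71.4. All 5 tissue arrays were within background, and all 9 culture arrays were above it.

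A gene with every array of a group within background has only a bound there. The bound given here is the geometric mean of the brighter group over the higher of 137.7 and the gene's own signal in the dimmer group. Against adult stroma Ccn1 was at least 8.55-fold higher in myofibroblast, 7.29-fold in fibroblast and 8.65-fold in keratocyte culture (adjusted p = 1.92e-07, 4.21e-07 and 2.07e-07). The 3 cultures did not differ from each other past the threshold, with log2 differences of 0.23 (95% interval -0.35 to 0.80) for myofibroblast minus fibroblast and -0.24 (-0.82 to 0.33) for fibroblast minus keratocyte culture.

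Ccn2 gave 4716, 4039.9 and 4156 in myofibroblast, 3248, 2423 and 1204 in fibroblast and 3828, 3529.7 and 3832 in keratocyte cultures. Its signals were 28.5, 109.9 and 30.1 in adult and 231 and 200.4 in P10 stroma. Every culture array lay above every tissue array. Ccn2 was at least 31.2-fold higher in myofibroblast, 15.4-fold in fibroblast and 27.1-fold in keratocyte culture than in adult stroma, with adjusted p of 1.53e-08, 1.1e-07 and 2.48e-08.

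Within the cultures Ccn2 was lowest in the fibroblast arrays and highest in the myofibroblast arrays, without overlap between any of the cultures. The differences did not pass after adjustment, at 1.01 (95% interval 0.22 to 1.80, adjusted p = 0.369) for myofibroblast minus fibroblast and -0.81 (-1.60 to -0.02, adjusted p = 0.554) for fibroblast minus keratocyte culture. Myofibroblast minus keratocyte culture was 0.20 (-0.59 to 0.99, adjusted p = 0.815). Fibroblast replicate 3, which had the lowest Ccn2 signal of the 9 culture arrays, also had the lowest summed signal of 10 myofibroblast markers, 6856, against 11429 and 13313 on the other fibroblast arrays and 12193 to 13574 in myofibroblast cultures. Its part in the Ccn2 differences was not tested beyond leaving it out, which changed no call of Ccn2 between cultures.

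Ccn4 was the CCN gene whose rise in myofibroblast culture passed against both other cultures. Ccn2 was also highest there without overlap, but did not pass. Its signals were 1583, 869 and 1384 in myofibroblast, 369.7, 223 and 273 in fibroblast and 334, 260.5 and 342 in keratocyte cultures, with 42.8, 29 and 60.3 in adult and 58.4 and 70.7 in P10 stroma. The myofibroblast arrays lay above all others, the fibroblast and keratocyte arrays overlapped, and all tissue arrays were within background. Ccn4 rose in myofibroblast against fibroblast culture by 2.07 ± 0.25 (adjusted p = 0.000844, or 0.0893 when just these 2 groups were fitted) and against keratocyte culture by 1.95 ± 0.25 (adjusted p = 0.000333). Fibroblast minus keratocyte culture was -0.13 (95% interval -0.67 to 0.42, adjusted p = 0.936). Against adult stroma it was at least 9-fold higher in myofibroblast, 2.05-fold in fibroblast and 2.25-fold in keratocyte culture.

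Thbs2 encodes thrombospondin 2, a secreted protein that restrains blood vessel growth and shapes collagen fibrils. Its signals were 1414, 693 and 911 in myofibroblast, 2514, 1822 and 3644 in fibroblast and 1018, 504 and 762 in keratocyte cultures. Adult stroma gave 94.5, 102.2 and 97.6, all within background, and P10 stroma 538 and 416. The fibroblast arrays lay above every other array.

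Of the 9 genes Thbs2 alone passed in fibroblast against keratocyte culture, rising by 1.78 ± 0.30 (adjusted p = 0.0102, 0.0577 without keratocyte replicate 3 and 0.116 when just these 2 groups were fitted). In myofibroblast against fibroblast culture, where the arrays did not overlap, it fell by 1.39 ± 0.30 (adjusted p = 0.0402). That call was lost in 12 of 26 alternatives, with adjusted p from 0.057 to 0.16 in the 10 that leave out an array and 0.357 with only the 2 groups, and it held with the replicate number as a block over all groups (0.0072) and in these cultures alone, a fit chosen after seeing the data (0.00898). Myofibroblast and keratocyte cultures differed by 0.39 (95% interval -0.25 to 1.03, adjusted p = 0.515).

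**Figure D3:**
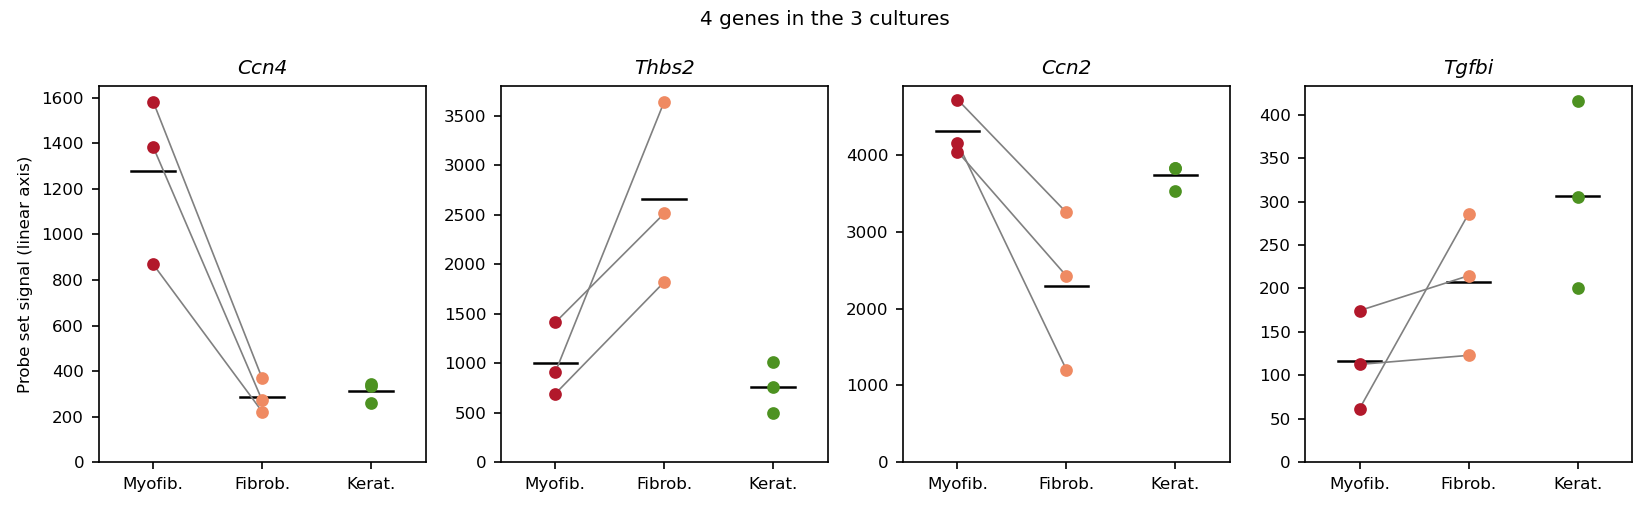
Signals of Ccn4, Thbs2, Ccn2 and Tgfbi on the 9 culture arrays (linear axes from 0), with black bars at group means and grey lines joining myofibroblast and fibroblast arrays of the same replicate number. At each replicate number the myofibroblast array is higher for Ccn4 and Ccn2 and lower for Thbs2 and Tgfbi. Ccn2 and Tgfbi did not pass in that comparison. Whether these numbers pair the arrays is not settled.

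Tnc encodes tenascin-C, a large hexameric protein that reduces cell adhesion to fibronectin and appears at wound edges. Its signals were 3007, 2251 and 1487 in myofibroblast, 2679, 2951 and 1425 in fibroblast and 1659.9, 1838 and 1763 in keratocyte cultures. Tissue arrays gave 90.7, 117 and 122 in the adult and 147 and 121 at P10. The cultures overlapped each other and lay above all tissue arrays. Tnc was at least 15.7-fold higher in myofibroblast, 16.3-fold in fibroblast and 12.7-fold in keratocyte culture than in adult stroma (adjusted p = 3.9e-08, 3.53e-08 and 9.95e-08), and no pair of cultures differed past the threshold (adjusted p from 0.593 to 1).

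A second Tnc probe set showed the same division, at 902 ± 324 in myofibroblast, 843 ± 290 in fibroblast and 842 ± 139 in keratocyte cultures (SD, n = 3 each) against 20.7 ± 2.65 in adult (SD, n = 3) and 76.1 ± 1.73 in P10 stroma (SD, n = 2). On that probe set adult stroma was below P10 stroma (adjusted p = 0.0179), with both groups within background, and on the brighter one it was not (adjusted p = 0.786).

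Sparc encodes a collagen-binding glycoprotein that acts in collagen secretion and fibril assembly. Its signals were 3644, 3139.5 and 3323 in myofibroblast, 2931, 2279 and 2999 in fibroblast and 2231, 2546 and 2435 in keratocyte cultures, against 1239, 1462 and 769 in adult and 2254 and 1937 in P10 stroma. It had the smallest rise of the 8 genes in keratocyte culture against adult stroma, 1.09 ± 0.20 on the log2 scale (adjusted p = 0.000671), and keratocyte culture overlapped P10 stroma (0.20, adjusted p = 0.625). Myofibroblast arrays lay above all others, but their difference from keratocyte culture, 0.48 ± 0.20, passed after quantile normalization (adjusted p = 0.0225) and with array quality weights (0.00614) and not in the fit as reported (0.183).

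**Figure D4:**
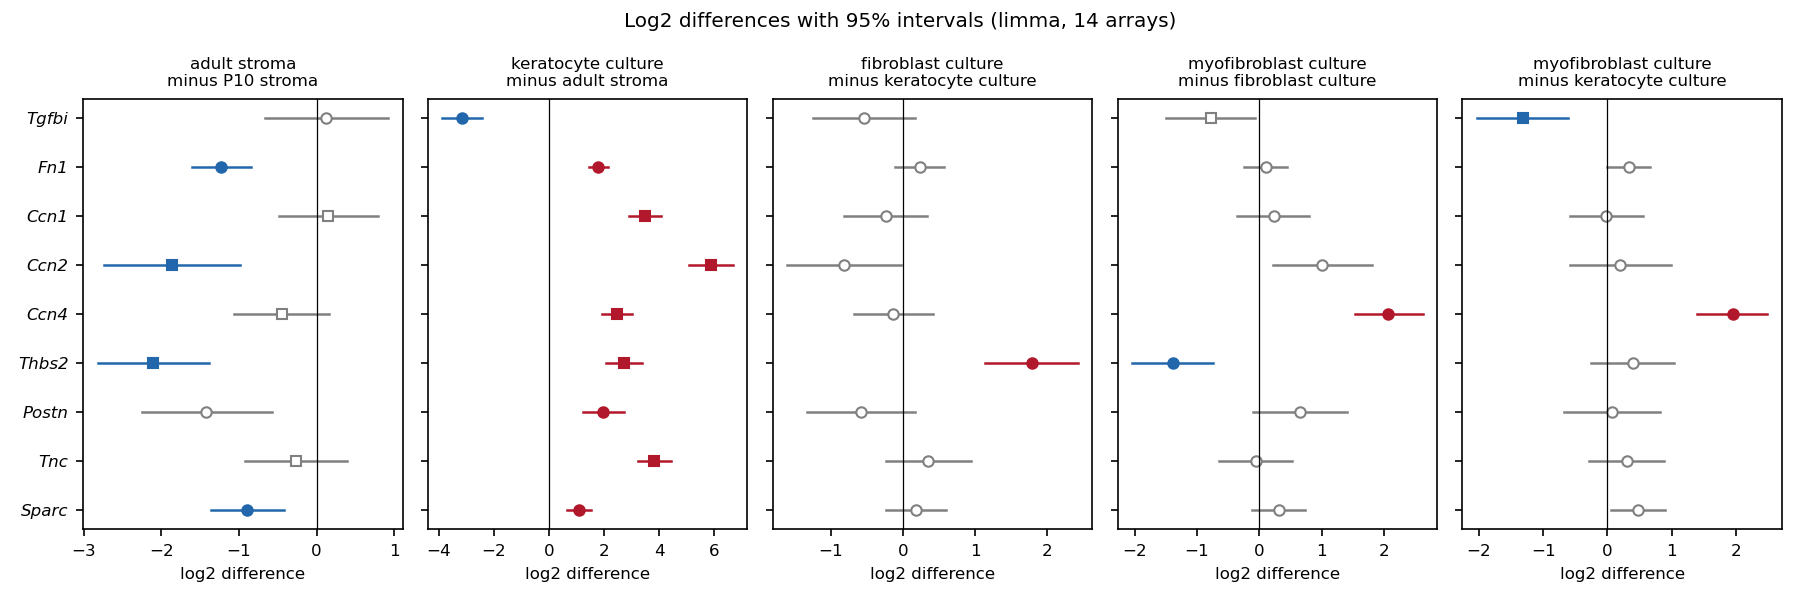
Log2 differences of the 9 genes with 95% intervals in 5 comparisons, each named as the first group minus the second. Filled red and blue marks passed the threshold as higher and lower, open grey marks did not, and squares mark comparisons in which a group mean was within background, where the size depends on the added constant of 16. In keratocyte culture minus adult stroma every gene passed, with Tgfbi alone to the left of 0.

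Adult stroma was set against P10 stroma, which spans the maturation of the tissue. Of the 9 genes 4 fell in adult stroma, 0 rose and 5 did not pass, against 2.96% of all genes lower and 0.498% higher. The median log2 difference was -0.89 over the 9 genes and -0.125 over all. Over all probe sets 47 rose and 338 fell, and 107 and 315 after quantile normalization. Thbs2 averaged 98.1 ± 3.88 in adult (SD, n = 3) and 477 ± 86 in P10 stroma (SD, n = 2), at least 3.44-fold lower in the adult (adjusted p = 0.0025). Fn1 fell by 1.23 ± 0.18 on the log2 scale (adjusted p = 0.00112), Sparc fell by 0.89 ± 0.22 (0.0369) and Ccn2 was at least 1.56-fold lower (0.0213).

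Postn, at 217 ± 55.9 in the adult (SD, n = 3) and 594 ± 9.17 at P10 (SD, n = 2), did not overlap between the ages but did not pass (adjusted p = 0.0613). Ccn1 and Ccn4 were within background at both ages. The count of 4 became 2 without adult replicate 1, the array with the highest Gapdh ratio, 1 without P10 replicate 1 and 2 without P10 replicate 2. Fn1 alone of the 4 kept its call in these 3 fits, though not when just the 2 ages were fitted (adjusted p = 0.0556), and Sparc lost its call after centring of the arrays (adjusted p = 0.157). Epithelial markers overlapped between the ages, at the sums given above, and 3 of 24 fell and 1 rose. Of 5 pigment cell markers 3 fell, with sums of 699 to 828 in adult and 1713 to 5026 in P10 stroma, and of 10 myofibroblast markers 4 fell and 1 rose, with sums of 1784.5 to 2873 in adult and 2516 to 3490.2 in P10 stroma. Their part in the fall of the 4 genes was not tested.

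Between cultures few of the genes passed. In fibroblast against keratocyte culture 1 of 9 passed, Thbs2, against 0.148% of all genes higher and 1.16% lower. In myofibroblast against fibroblast culture 2 of 9 passed, Ccn4 higher and Thbs2 lower, against 0.35% of all genes higher and 0.887% lower. Myofibroblast against keratocyte culture also gave 2, Ccn4 higher and Tgfbi lower, against 1.17% and 4.93% of all genes. After quantile normalization the split over all probe sets, higher then lower, was 39 and 111 in place of 20 and 122 for fibroblast minus keratocyte, 63 and 95 in place of 30 and 81 for myofibroblast minus fibroblast, and 276 and 413 in place of 114 and 506 for myofibroblast minus keratocyte culture. The summed signal of 18 macrophage markers was 1872 to 3006 in myofibroblast, 2166.4 to 4224 in fibroblast and 4898 to 6085 in keratocyte cultures. That of 5 pigment cell markers was 463.5 to 588.5 in myofibroblast, 410.5 to 636 in fibroblast and 1907 to 2263 in keratocyte cultures, with 4 of 5 lower in each of the other cultures than in keratocyte culture. Of 8 vascular endothelium markers 4 fell in myofibroblast and 1 in fibroblast against keratocyte culture. The part of these cell types in the differences was not tested.

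Lists of related genes were described in the same fit. Of 17 measured genes for related matrix proteins 7 rose and 1 fell in keratocyte culture against adult stroma, with a median log2 difference of 0.55, beside 22.1% higher, 9.2% lower and a median of 0.135 over all genes. Fbln2, a fibulin of elastic and basement membrane matrix, averaged 1157 ± 224 in keratocyte culture and 114 ± 19.7 in adult stroma (SD, n = 3 each, adjusted p = 4.78e-05). Ccn5, a CCN gene whose product lacks the C-terminal domain, was at 371.5 ± 75.8 in keratocyte culture and 53.9 ± 20.4 in adult stroma (adjusted p = 1.75e-05). Matn2, a matrilin, was at 253 ± 33 in keratocyte culture and 35.1 ± 13.9 in adult stroma. Sparcl1, a relative of Sparc, was at 458 ± 142 in keratocyte culture and 84 ± 12.4 in adult stroma.

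Between cultures Sparc itself did not pass, and Sparcl1 did. It was at 190.4 ± 102 in myofibroblast and 116 ± 15.6 in fibroblast cultures and fell in both against keratocyte culture (adjusted p = 0.0172 and 0.00707). Matn2 fell likewise, to 48.9 ± 3.53 in myofibroblast and 66 ± 17 in fibroblast cultures (adjusted p = 5.84e-05 and 0.00185). Smoc2, another gene of the Sparc family, fell in myofibroblast culture, at 95.4 ± 18.6, against fibroblast culture, at 248.5 ± 84.3 (adjusted p = 0.0277), and against keratocyte culture, at 268 ± 64 (adjusted p = 0.0037). In adult against P10 stroma Sparcl1, at 84 ± 12.4 in the adult and 319.9 ± 12.4 at P10, and Matn2, at 35.1 ± 13.9 in the adult and 152 ± 9.02 at P10, were the 2 of 17 that fell. Over all genes 2.96% fell in that comparison.

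Of 17 receptor genes 6 rose and 3 fell in keratocyte culture against adult stroma, beside 22.1% higher and 9.2% lower over all genes. Their median log2 difference was 0.16, close to the 0.135 over all genes. Itga5 and Itgb1, the chains of the main fibronectin receptor, rose to 185 ± 16.4 and 2637 ± 434 in keratocyte culture, against 34.3 ± 5.27 and 906 ± 176 in adult stroma (adjusted p = 4.72e-06 and 1.2e-05). Sdc1, a syndecan of epithelia, fell to 30.1 ± 9.81 in keratocyte culture, against 1112 ± 309 in adult stroma (adjusted p = 2.05e-08). Itga6, which was also on the list of epithelial markers, was at 73.6 ± 28.3 in keratocyte culture and 260.5 ± 82.2 in adult stroma (adjusted p = 0.0111). Between adult and P10 stroma 0 of 17 receptors passed, beside 2.96% of all genes lower and 0.498% higher. Between cultures only Itga6 passed, lower in myofibroblast than in keratocyte culture, where its mean of 73.6 was itself within background. In that comparison 4.93% of all genes were lower.

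Of 20 genes for TGF-beta ligands, receptors, binding proteins and feedback 14 rose and 0 fell in keratocyte culture against adult stroma. Over all genes 22.1% rose and 9.2% fell. The median log2 difference was 1.07, beside 0.135 over all genes. Tgfb2, a ligand, was at 149 ± 22.8 in keratocyte culture and 22.3 ± 12.3 in adult stroma, and Ltbp1, which holds latent TGF-beta in the matrix, at 301.5 ± 80.4 in keratocyte culture and 25.8 ± 16.1 in adult stroma. Smad7, an inhibitor induced by the pathway, was at 381 ± 69.3 in keratocyte culture and 47.5 ± 19.6 in adult stroma (adjusted p = 3.71e-06). Fkbp1a, which binds the type I receptor, was at 1271 ± 164 in keratocyte culture and 159 ± 15.3 in adult stroma. Tgfb2 then fell in fibroblast against keratocyte culture, to 46 ± 17.4 (adjusted p = 0.0166), and in myofibroblast against keratocyte culture, to 22.75 ± 1.82 (adjusted p = 0.000263). Its fibroblast, myofibroblast and adult means were all within background, and its keratocyte mean was just above it. Ltbp1 and Ltbp4 also fell in myofibroblast culture, at 112 ± 52.2 and 67.3 ± 21.1, both within background, against keratocyte culture, at 301.5 ± 80.4 and 156 ± 23 (adjusted p = 0.0471 and 0.0497). In that comparison 4 of 20 fell and 1 rose, beside 4.93% and 1.17% of all genes. In adult against P10 stroma 4 of 20 fell, beside 2.96% of all genes. Among them was Ltbp4, at 221 ± 76.1 in the adult and 922 ± 71.6 at P10 (adjusted p = 0.00313).

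**Figure D5:**
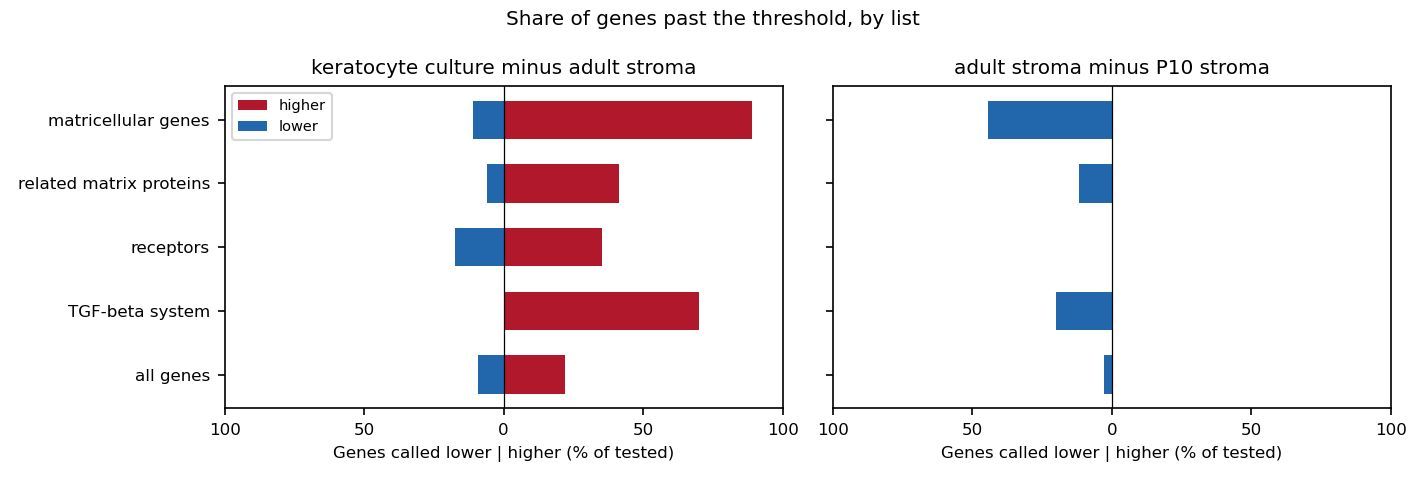
Share of tested genes called higher (right, red) and lower (left, blue) in keratocyte culture minus adult stroma and in adult minus P10 stroma, for the 9 matricellular and fibronectin genes, 3 lists around them and all 7437 genes. In culture 8 of the 9 genes were higher, against 22.1% of all genes.

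The genes whose pattern was most like each of the 9 were named by Pearson's r of log2(signal + 16) over the 14 arrays. All these values share the large difference between tissue and culture arrays, so they describe that division and carry no test. Most like Tgfbi were Hspa1a, Tkt and Crybg1 (r = 0.985, 0.979 and 0.978), and most like Fn1 were Kdelr3, Serpinh1 and Col5a2 (r = 0.99, 0.985 and 0.979). Ccn1 was matched by Txnrd1, Fxyd5 and Nek6 (r = 0.989, 0.987 and 0.986) and Ccn2 by Lrrc59, Pgam1 and Tpm1 (r = 0.987, 0.985 and 0.984). For Ccn4 they were Skil, Adcy7 and Bcat1 (r = 0.987, 0.98 and 0.972), and for Thbs2 Shox2, Pcolce and Spg20 (r = 0.969, 0.949 and 0.944). Postn was matched by Olfm1, Vps26c and Oaz2 (r = 0.925, 0.922 and 0.921). Tnc was matched by Timp1, Cfl1 and Saa4 (r = 0.989, 0.987 and 0.984) and Sparc by Dnajc5, Cyth3 and Col5a1 (r = 0.967, 0.961 and 0.958). Of the genes named here, Skil, Spg20 and Olfm1 had means within background in every group.

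Over the 9 culture arrays alone r ran from 0.304 for Saa4 with Tnc to 0.978 for Skil with Ccn4. Skil, a feedback inhibitor of TGF-beta signalling, averaged 102 in myofibroblast, 33.6 in fibroblast and 44.2 in keratocyte cultures, all within background, and was the single gene of the TGF-beta list to pass in myofibroblast against fibroblast culture. Adcy7, an adenylyl cyclase, averaged 492 in myofibroblast, 121 in fibroblast and 101 in keratocyte cultures. Shox2, a homeobox gene, averaged 313.5 in myofibroblast, 952 in fibroblast and 301 in keratocyte cultures, the order seen for Thbs2, with r = 0.969 over the cultures as over all arrays.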

How the data were processed

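Each array's intensity per probe set was deposited as a linear MAS5 signal, made from 5 µg of total RNA with scaling to a target of 150, per the labels. Their 2% trimmed means ran from 164.3 to 224.7, so the scaling as deposited is not settled, and the lowest signal was 1. Detection calls were not used here. Precision is limited by how many arrays each group has.

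Probe sets were named from the platform annotation: 10833 of 12422 had 1 symbol, 396 several and 1193 none. Those with a mean of 50 or more in at least 1 group were kept (10370, including all 9 measured genes), and the brightest stood for its gene. The main test was limma (3.58.1, R 4.3.3) with a variance trend, run on log2(signal + 16) for the 14 arrays together, which left 9 residual degrees of freedom. P-values were two-sided and adjusted by Benjamini-Hochberg over all kept probe sets, with a call below 0.05. The fit was tested on simulated data. Differences are on the log2(signal + 16) scale.

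All 10 genes were named, with up to 4 called genes of each of 3 lists per comparison and the 3 genes most like each of the 9. The genes and lists were chosen with earlier results of these data known. Pairing by replicate number was judged from deviations from group means. For myofibroblast with fibroblast arrays they correlated at 0.623, 0.682 and 0.533 for numbers 1 to 3, each above 0.1. Fibroblast with P10 arrays (0.219 and 0.193) and keratocyte with P10 arrays (0.295 and 0.139) also passed 0.1, at lower values. That threshold alone therefore does not mark a pairing. Alternatives were other constants, filters, scalings, weights and covariates, the replicate block, the 2 groups alone and leaving out each array.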

Additional observations from a re-analysis of the deposited data

Results flagged for a closer look

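1 probe set was left out of every comparison because the annotation gives it 2 symbols, Pald1 and Thbs1. Its signal ran from 1832 to 3274.5 on the 9 culture arrays and from 90.5 to 249 on the 5 tissue arrays, so the lowest culture array lay above the highest tissue array. It was assigned to neither gene.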

How the results depend on the processing

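Over all comparisons, 2157 values of the 9 genes under an alternative kept direction and side of the threshold, 75 lost a call, 14 gained one and 23 changed sign; the cause was not tested. In keratocyte culture minus adult stroma the count of 9 genes held without any 1 array (9 to 9) and under each alternative, and all probe sets called numbered 3221, 2380 to 3359 without 1 array and 6366 with array quality weights. In adult minus P10 stroma the counts were 4 genes and 385 probe sets; 2 and 225 with just those groups fitted, 2 and 198 with the Gapdh ratio as a covariate, 628 probe sets with the replicate block and 2335 with weights, and 1 to 5 genes and 117 to 495 probe sets without 1 array. In fibroblast minus keratocyte culture they were 1 and 142; 0 and 46 with just those groups, 83 probe sets with 1 as the added constant, 214 with the block, 360 with weights, and 0 to 1 and 20 to 171 without 1 array. In myofibroblast minus keratocyte culture they were 2 and 620; 1 gene with just those groups, 1007 probe sets with the block, 2648 with weights, and 1 to 2 and 298 to 694 without 1 array. In myofibroblast minus fibroblast culture they were 2 and 111. With just those groups they were 0 and 16, and the Gapdh covariate left 1 gene. The replicate block gave 173 probe sets, and 253 in those cultures alone (chosen after seeing the data). Without 1 array they were 1 to 2 and 61 to 151. Whether the replicate numbers pair these arrays is not settled. Neither replicate block changed a call of the 9 genes there.

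Every difference that changed sign had missed the threshold. For myofibroblast minus fibroblast culture Tnc (-0.05) was 0.01 after quantile normalization and after centring, 0.09 on the other probe set and -0.38 to 0.21 without 1 array, and Ccn1 was -0.05 to 0.53 without 1 array. For myofibroblast minus keratocyte culture Ccn1 was 0.11 after quantile normalization, 0.16 after centring and -0.23 to 0.18 without 1 array, and Postn -0.15 to 0.45. For fibroblast minus keratocyte culture Ccn1 was -0.55 to 0.04 without 1 array, Ccn4 -0.31 to 0.04, and Tnc -0.04 on the other probe set. Postn in fibroblast culture minus P10 stroma was 0.08 after centring and -0.44 to 0.23 without 1 array, Ccn1 in adult minus P10 stroma was -0.01 to 0.31 without 1 array, and Sparc in keratocyte culture minus P10 stroma was -0.03 after quantile normalization. Quantile normalization moved the median over probe sets from -0.125 to 0.027 in adult minus P10 stroma, 0.121 to -0.047 in keratocyte culture minus adult stroma, -0.131 to 0.031 in myofibroblast minus keratocyte and -0.093 to 0.01 in fibroblast minus keratocyte culture.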
